A study of Homo sapiens with 14 samples.

Results

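Knockdown of CFIm68 was compared directly with knockdown of CFIm25 in HEK 293, an established cell line from human embryonic kidney. The comparison takes every library labelled with one of these knockdowns, which is 5 of the 14 RNA-seq libraries of the study: 3 with CFIm68 knockdown and 2 with CFIm25 knockdown. Reads were counted per gene, and 12080 expressed genes of the 18006 in the table were compared. The other libraries are 3 controls with a wild-type label and 6 that overexpress one of the proteins; the controls serve below as a reference. Both knockdowns were made with small interfering RNA (siRNA) delivered by Lipofectamine RNAiMAX. The sources used here do not give whether the controls received an siRNA, how many siRNAs were used per gene or how long cells were treated. Effects of losing a subunit and effects of the siRNA used against it cannot be told apart in this design. Nothing states that replicates were separate cultures, and the p-values therefore measure only the spread between these libraries. In whole cultures, fewer cells of a kind and less RNA per cell cannot be told apart.

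CFIm25 (gene NUDT21) and CFIm68 (gene CPSF6) belong to the same complex, cleavage factor I. A pair of CFIm25 subunits binds UGUA motifs in pre-mRNA upstream of cleavage sites, and CFIm68, or its relative CFIm59 encoded by CPSF7, joins that pair and contacts the rest of the 3′ end machinery through an arginine- and serine-rich region. Loss of either protein is known to move polyadenylation towards proximal sites in many transcripts, which shortens 3′ UTRs. The direct comparison asks which transcripts differ in level depending on which of the subunits was targeted. Read counts per gene hold levels only, and the choice of polyadenylation site was not analysed here.

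To show the motif in its context, the following lines print it near the annotated 3′ ends of genes on which the comparison turns. Each gives 30 bases of the transcribed strand around the UGUA nearest to the annotated end, within the last 100 bases of the transcript, with TGTA in capitals. They were read from the hg38 genome with the GENCODE 29 annotation, for the coding transcript with the longest 3′ UTR of each gene. The CPSF6 site is at chr12:69274314-69274343 on the plus strand, with its UGUA 32 bases before the end. The PDIA3 site is at chr15:43773198-43773227, plus strand, 69 bases before the end, and the MED12L site at chr3:151437003-151437032, plus strand, 57 bases before it. On the minus strand lie the sites of NUDT21 at chr16:56429196-56429225, 80 bases before the end, and of SLC7A11 at chr4:138164145-138164174, 65 bases before it.
CPSF6: atggtatttatctTGTAttgaaaataaaac
PDIA3: cgcttttcttctcTGTAacttgggtactgc
SLC7A11: ttataaccattttTGTAcatattttacttg
NUDT21: atatttttatattTGTAaagtaagtttggt
MED12L: gaacagtaatcagTGTAtgaccaacactat
Genes lower in CFIm68 knockdown (CPSF6, PDIA3, SLC7A11) and genes higher in it (NUDT21, MED12L) both carry the motif there, while GNPDA1, SLC1A5 and CCND2, which also differ, have 0 in their last 100 bases. A UGUA was present in the last 100 bases of 57.6% of the genes higher in CFIm68 knockdown, 59.4% of those lower and 54.6% of those that did not pass the test.

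The targeted transcripts separated the groups in every library. Levels are given as CPM, the count of a gene scaled to a common library size, with libraries balanced by the trimmed mean of M-values (TMM). CPSF6 was at 40.5, 41.9 and 42.5 CPM in the CFIm68 knockdown libraries, at 526 and 540 CPM in the CFIm25 knockdown libraries and at 274, 262 and 268 CPM in the controls. Its level thus lay below all controls in one knockdown and above all controls in the other, and the log2 difference between the knockdowns (CFIm68 minus CFIm25 knockdown, here and throughout) was -3.68 ± 0.06 (SE), a 12.8-fold difference. NUDT21 was at 54.6 and 52.9 CPM in the CFIm25 knockdown libraries, at 242, 231 and 224 CPM in the CFIm68 knockdown libraries and at 537, 500 and 506 CPM in the controls. NUDT21 was therefore below every control in both knockdowns, and its log2 difference between them was 2.11 ± 0.07. CPSF6 spans chr12:69239537-69274358 and NUDT21 spans chr16:56429133-56452199. Relative to control, CPSF6 was 1.99-fold higher when CFIm25 was knocked down (edgeR, Benjamini-Hochberg adjusted p = 1.6e-14), and NUDT21 was 2.21-fold lower when CFIm68 was knocked down (edgeR, adjusted p = 1.9e-15). The targeted transcripts fell to unequal depths, NUDT21 9.57-fold in CFIm25 knockdown and CPSF6 6.44-fold in CFIm68 knockdown. Depth of knockdown, the fall of both transcripts in CFIm68 knockdown and the identity of the subunit cannot be told apart in this design.

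CPSF7, the gene of CFIm59, differed little. It was at 201 and 208 CPM in CFIm25 knockdown, at 227, 238 and 231 CPM in CFIm68 knockdown and at 265, 272 and 282 CPM in the controls. Both knockdowns lay below the controls, and their libraries did not overlap each other. The log2 difference of 0.18 ± 0.06 passed the test (edgeR, Benjamini-Hochberg adjusted p = 0.018), but it did not without replicate 1 of CFIm25 knockdown (0.16, adjusted p = 0.17), without its replicate 2 (adjusted p = 0.056) or without replicate 2 of CFIm68 knockdown (adjusted p = 0.077).

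**Figure D1:**
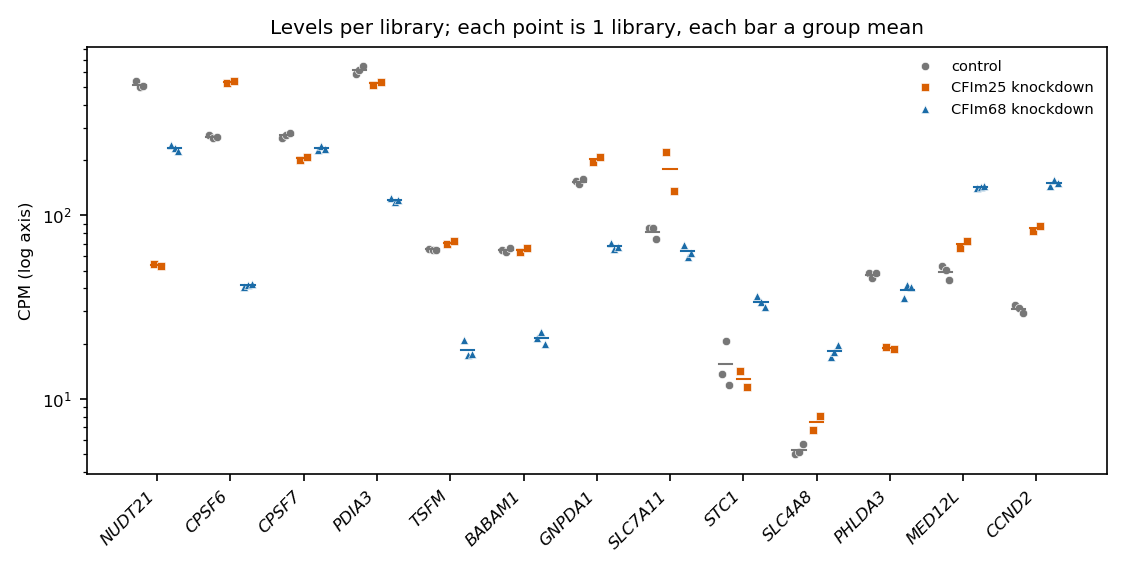
Levels of 13 genes in CPM (logarithmic vertical axis), in 3 control, 2 CFIm25 knockdown and 3 CFIm68 knockdown libraries; each point is 1 library and each short bar a group mean. CPSF6 lies above the controls in CFIm25 knockdown and below them in CFIm68 knockdown, and PDIA3, TSFM and BABAM1 are lowest in all 3 CFIm68 knockdown libraries.

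Across all expressed genes the knockdowns differed at many genes, mostly by small amounts. Of 12080 genes, 2929 (24.2%) passed an adjusted p of 0.05 in edgeR's quasi-likelihood test, 1340 (11.1%) higher and 1589 (13.2%) lower in CFIm68 than in CFIm25 knockdown. The median size of the log2 difference was 0.32 among these genes, and 2520 of them (86.0%) differed by under 1.5-fold. At least a 1.5-fold difference was estimated for 175 genes higher and 234 lower, and at least a 2-fold difference for 35 and 45. When the difference was tested against 1.5-fold itself, 58 genes (0.48%) passed, 12 higher (0.0993%) and 46 lower (0.381%). In the other direction, the 95% interval of the difference lay inside 1.5-fold either way for 9272 genes (76.8%), so for these a larger difference between the knockdowns was outside the interval. Without replicate 1 of CFIm25 knockdown 1465 genes passed (591 higher, 874 lower), and without its replicate 2, 2018 passed (857 higher).

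Libraries of the knockdowns did not overlap at 6801 genes (56.3%), and 2918 of the 2929 called genes (99.6%) were among them. Of the 9151 genes that did not pass, 7286 had an interval inside 1.5-fold either way, and for 1865 the interval reached past it, so that a 1.5-fold difference was not excluded by these libraries.

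The calls rest on 2 CFIm25 knockdown libraries that differ from each other more than the CFIm68 knockdown libraries do. The median size of the log2 difference over genes was 0.090 between the CFIm25 knockdown libraries, 0.062 to 0.075 between CFIm68 knockdown libraries and 0.146 to 0.180 between libraries of different knockdowns. Replicate 1 of CFIm25 knockdown lay farther from the CFIm68 knockdown libraries than replicate 2 did, at -21.3 and -15.2 on the leading principal component of the 5 libraries against 10.6 to 13.1. Total counts were 22464083 and 33895308 in the CFIm25 knockdown libraries, 24119597 to 28963694 in the CFIm68 knockdown libraries and 17734490 to 18385536 in the controls. The share of genes passing the test rose with level, from 8.86% below a mean of 5 CPM to 32.6% at 100 CPM and above.

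**Figure D2:**
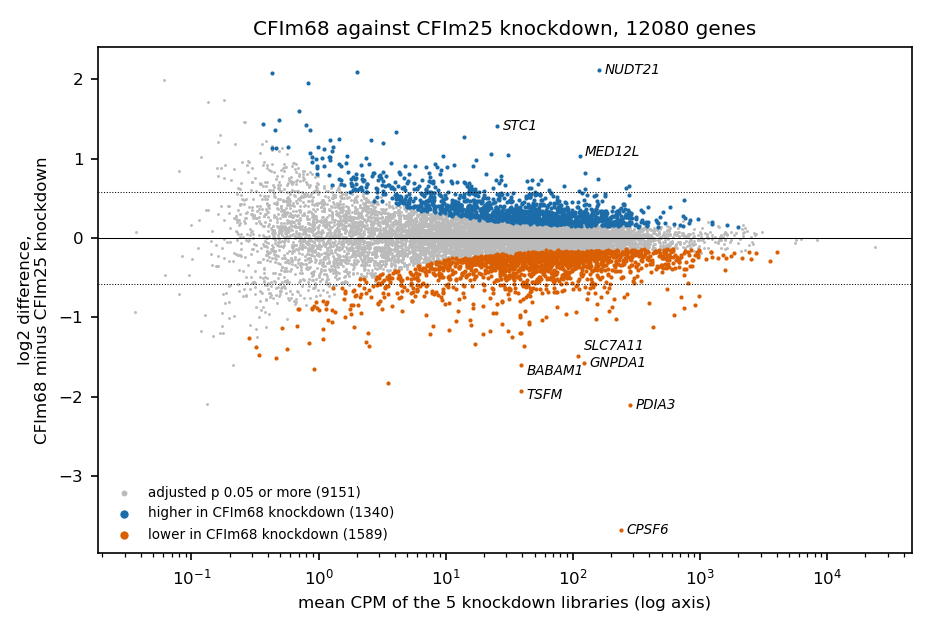
Log2 difference between CFIm68 and CFIm25 knockdown (vertical axis) against the mean level of the 5 knockdown libraries in CPM (logarithmic horizontal axis); each point is 1 of 12080 genes, coloured by the test, and dotted lines mark 1.5-fold. The 1340 higher and 1589 lower genes mostly lie between the dotted lines, and CPSF6, PDIA3 and TSFM are the farthest below 0 among the genes named.

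Besides CPSF6, the lowest genes in CFIm68 knockdown belonged to varied cellular functions. PDIA3 encodes a disulfide isomerase of the endoplasmic reticulum that assists folding of glycoproteins and loading of MHC class I molecules, and spans chr15:43746392-43773279. It was at 125, 118 and 122 CPM in CFIm68 knockdown, at 511 and 534 CPM in CFIm25 knockdown and at 587, 620 and 647 CPM in the controls. Every CFIm68 knockdown library was more than 4-fold below every CFIm25 knockdown library, and the log2 difference was -2.10 ± 0.06 (edgeR, Benjamini-Hochberg adjusted p = 9.6e-22). PDIA3 has a near-identical processed pseudogene, and the sources used here do not give how reads that match both were counted.

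TSFM encodes a mitochondrial translation elongation factor and spans chr12:57782589-57808071. It was at 20.9, 17.3 and 17.5 CPM in CFIm68 knockdown, at 69.4 and 72.3 CPM in CFIm25 knockdown and at 64.5 to 66.0 CPM in the controls (log2 difference -1.93 ± 0.07). BABAM1, at chr19:17267350-17281249, encodes a subunit of the BRCA1-A complex, which acts at DNA double-strand breaks. Its levels were 21.5, 23.0 and 20.03 CPM in CFIm68 knockdown, 63.3 and 66.5 CPM in CFIm25 knockdown and 63.5 to 66.0 CPM in the controls (log2 difference -1.59 ± 0.07). For both genes the CFIm25 knockdown libraries were close to the controls (log2 differences from control of 0.12 and 0.01, edgeR adjusted p = 0.14 and 0.95), and the CFIm68 knockdown libraries were 3.501-fold and 3.007-fold below them. The exons of both overlap those of a neighbour on the same strand, so part of their counts may belong to that neighbour.

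CCDC3, which encodes a secreted coiled-coil protein, had the same order of levels, at 26.15, 24.61 and 24.97 CPM against 64.1 and 65.3 CPM in CFIm25 knockdown and 62.4 to 68.0 CPM in the controls. FAM114A2 (log2 difference -1.25 ± 0.07), the RAS GTPase-activating protein gene RASA3 (-1.20 ± 0.09) and PHLDA1 (-1.21 ± 0.13) also had CFIm25 knockdown levels near control, with log2 differences from control of 0.06, 0.08 and -0.01. Lower by more than 1.5-fold were also STMN3, a stathmin family gene (19.2, 19.3 and 19.4 CPM against 41.86 and 39.95), the spindle checkpoint gene MAD2L1 (150, 135 and 140 CPM against 285 and 251) and the translation initiation factor gene EIF3A (720, 672 and 704 CPM against 1256 and 1251).

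Some genes were lower in CFIm68 knockdown and higher in CFIm25 knockdown than in control. GNPDA1, at chr5:141991749-142013041, encodes glucosamine-6-phosphate deaminase, which returns amino sugars to glycolysis. It was at 71.0, 65.3 and 67.3 CPM in CFIm68 knockdown, 153, 147 and 158 CPM in the controls, and 196 and 207 CPM in CFIm25 knockdown. The 3 groups did not overlap, with the controls in the middle, and the log2 difference between the knockdowns was -1.57 ± 0.06. WDR83 (10.8, 9.75 and 11.1 CPM against 27.1 and 26.3 CPM, controls 17.2 to 18.8) and AP3S2, a subunit of the AP-3 adaptor complex (25.9, 25.1 and 24.2 CPM against 59.6 and 55.9 CPM, controls 37.7 to 44.0), showed the same order. AP3S2 exons also overlap a same-strand neighbour. In all, the 3 controls lay between the knockdowns at 224 genes called lower (1.85% of those tested) and 110 called higher (0.911%) in CFIm68 knockdown.

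Read against the controls, which both knockdowns share, the 46 genes lower past 1.5-fold were mostly genes that fell in CFIm68 knockdown. Of the 46, 43 were lower than control in CFIm68 knockdown and 0 were higher, with a median log2 difference from control of -0.97. In CFIm25 knockdown 19 of the 46 were higher than control, 12 were lower and 15 did not pass the test (median 0.12). Over all genes tested, 24.4% were higher and 23.2% lower than control in CFIm25 knockdown, and 28.3% higher and 28.1% lower in CFIm68 knockdown. These genes were chosen for their difference between the knockdowns, so the counts describe them and test nothing.

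Genes higher in CFIm68 knockdown were fewer at large differences. STC1 encodes the secreted glycoprotein stanniocalcin-1. It was at 36.2, 33.7 and 31.8 CPM in CFIm68 knockdown, at 14.3 and 11.6 CPM in CFIm25 knockdown and at 13.6, 20.8 and 11.9 CPM in the controls (log2 difference 1.41 ± 0.15, edgeR, Benjamini-Hochberg adjusted p = 4.2e-08). 1 CFIm25 knockdown library lay in the range of the controls and the other just below it, and the CFIm68 knockdown libraries lay above all of these. SLC4A8, which encodes a sodium-driven chloride-bicarbonate exchanger, was at 16.8, 17.9 and 19.8 CPM in CFIm68 knockdown, 6.81 and 8.09 CPM in CFIm25 knockdown and 4.99 to 5.71 CPM in the controls. MED12L, a paralog of the Mediator kinase module subunit MED12, was at 141, 142 and 145 CPM in CFIm68 knockdown, 66.5 and 72.8 CPM in CFIm25 knockdown and 44.4 to 52.8 CPM in the controls. For SLC4A8, MED12L and the endosomal sorting nexin gene SNX16 (29.1, 26.5 and 30.8 CPM against 15.8 and 12.1 CPM, controls 9.19 to 9.45), CFIm25 knockdown lay above the controls and CFIm68 knockdown above both.

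CCND2, the gene of the G1 cyclin D2, showed the same order as SLC4A8, SNX16 and MED12L, farther from control in both knockdowns. Its log2 difference between the knockdowns was smaller than theirs (1.27, 1.06 and 1.03). CCND2 was at 29.4 to 32.4 CPM in the controls, 82.1 and 87.8 CPM in CFIm25 knockdown and 144, 157 and 151 CPM in CFIm68 knockdown. The CFIm68 knockdown libraries were 4.84-fold and the CFIm25 knockdown libraries 2.74-fold above control on average, and the log2 difference between the knockdowns was 0.82 ± 0.06 (edgeR, adjusted p = 4.7e-11). CCND2 exons overlap a same-strand neighbour. Of the 12 genes higher past 1.5-fold, 6 were higher and 2 lower than control in CFIm68 knockdown, and 5 were higher and 6 lower in CFIm25 knockdown.

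A different order was seen in genes that were lowest in CFIm25 knockdown. PHLDA3, a p53 target that inhibits AKT, was at 19.2 and 18.7 CPM in CFIm25 knockdown, at 35.6, 41.6 and 40.5 CPM in CFIm68 knockdown and 45.3 to 48.5 CPM in the controls, so that CFIm68 knockdown was below every control as well. SCAMP4, a carrier membrane protein gene, was at 11.3 and 10.4 CPM, 20.8, 21.5 and 22.1 CPM, and 22.6 to 26.5 CPM in the same order, and DCUN1D3, which acts in cullin neddylation, at 10.9 and 10.8, 20.4, 19.4 and 20.9, and 19.7 to 21.9 CPM. In all 3 genes both CFIm25 knockdown libraries lay below every other library of these groups, and the exons of all 3 overlap a same-strand neighbour. CLU, which encodes the extracellular chaperone clusterin, was at 199 and 212 CPM in CFIm25 knockdown, 272, 279 and 303 CPM in the controls and 316, 328 and 328 CPM in CFIm68 knockdown, with the controls in the middle. ZBTB4, a zinc finger repressor gene that binds methylated DNA, was at control level in CFIm25 knockdown (105 and 120 CPM against 114 to 117) and higher in CFIm68 knockdown (181, 189 and 193 CPM).

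Among lists with at least 5 tested members, the ATF4 and amino acid stress genes had the largest median difference and the largest share called. ATF4 is the transcription factor of the integrated stress response, and its targets include amino acid transporters, enzymes of serine, glycine and asparagine synthesis and aminoacyl-tRNA synthetases. Of 33 tested members 24 were lower in CFIm68 knockdown, 0 were higher and 9 did not pass the test, with a median log2 difference of -0.45 against 0.00 over all genes. That is 72.7% of the members, beside the 24.2% called over all genes. Shares over all genes are those with all libraries, here and below. Without replicate 1 of CFIm25 knockdown fewer genes passed over all genes as well. Counts of members without that library are therefore not to be set against these shares. Without replicate 1 of CFIm25 knockdown 17 members were lower (median -0.28), and without its replicate 2, 26 were (median -0.64); the 2 CFIm25 knockdown libraries differed here, with 31 of 33 members at a higher level in replicate 1 than in replicate 2.

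ATF4 itself was at 337 and 291 CPM in CFIm25 knockdown, 167, 148 and 150 CPM in CFIm68 knockdown and 216, 198 and 215 CPM in the controls. It was thus above control in one knockdown and below control in the other (log2 difference -1.02 ± 0.07, edgeR, Benjamini-Hochberg adjusted p = 4.9e-12). CHAC1, a glutathione-degrading enzyme gene, was at 7.95 and 4.55 CPM in CFIm25 knockdown, 2.05, 1.24 and 1.78 CPM in CFIm68 knockdown and 1.22 to 1.42 CPM in the controls. ASNS, the asparagine synthetase gene, was at 645 and 428 CPM in CFIm25 knockdown, 321, 295 and 297 CPM in CFIm68 knockdown and 245 to 270 CPM in the controls. For CHAC1 and ASNS the CFIm68 knockdown libraries were nearer to the controls than the CFIm25 knockdown libraries were.

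Among the transporters, SLC7A11, the cystine-glutamate exchanger, was at 222 and 136 CPM in CFIm25 knockdown, 69.3, 59.4 and 62.2 CPM in CFIm68 knockdown and 74.3 to 85.5 CPM in the controls (log2 difference -1.48 ± 0.12). The glutamine transporter gene SLC1A5 was at 649 and 606 CPM in CFIm25 knockdown, 287, 284 and 292 CPM in CFIm68 knockdown and 512 to 592 CPM in the controls (-1.12 ± 0.06). CFIm68 knockdown was 1.91-fold below control and CFIm25 knockdown 1.14-fold above it. The large neutral amino acid transporter gene SLC7A5 (273 and 214 CPM against 153, 157 and 160) had CFIm68 knockdown levels inside the range of the controls (152 to 163), while the SNAT2 gene SLC38A2 was at 152, 138 and 146 CPM in CFIm68 knockdown and, in CFIm25 knockdown (240 and 206 CPM), near the controls (204 to 227).

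Enzymes of serine and one-carbon metabolism followed the same direction. PSAT1 was at 192 and 155 CPM in CFIm25 knockdown, 116, 112 and 108 CPM in CFIm68 knockdown and 110 to 117 in the controls, and PSPH, MTHFD2 and SHMT2 had log2 differences between the knockdowns of -0.67, -0.49 and -0.35. The glycyl-tRNA synthetase gene GARS1 was at 376 and 314 CPM against 216, 211 and 206 CPM (-0.71 ± 0.06). Not all members separated the knockdowns: SARS1 and WARS1 were above control in both (SARS1 401 and 363 CPM in CFIm25 knockdown, 356, 357 and 353 in CFIm68 knockdown, controls 220 to 238), and their differences between the knockdowns of -0.10 and -0.07 did not pass the test. TRIB3 and PPP1R15A were near 0 as well, at 0.09 and 0.07. Relative to the shared controls, 24 of the 33 members were higher and 1 lower in CFIm25 knockdown, beside 24.4% and 23.2% over all genes. In CFIm68 knockdown 11 were higher and 10 lower, near the 28.3% and 28.1% over all genes.

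The composite element bound by ATF4 with C/EBP proteins was looked for in the promoters of these genes as TGATGNAA, on both strands, from 250 bases before to 50 bases after the transcription start. RefSeq promoters on GRCh38.p14 were matched for 28 of the 33 members, and 6 (21.4%) held it, among them 5 of 20 members lower in CFIm68 knockdown and 1 of 8 that did not pass the test. It was in 1.77% of the 9773 matched promoters of tested genes and in 3.67% of all 27305 RefSeq promoters. Among all genes called, it was in 2.22% of 1309 promoters of those lower in CFIm68 knockdown and 1.67% of 1077 of those higher. Members were listed for ATF4 and amino acid stress, so their share does not test the difference between the knockdowns. A match is only a run of letters, and binding was not measured here. The promoters of CHAC1 and ASNS, the members of the list with the largest rise over control in CFIm25 knockdown that hold a match, are shown with the match in capitals. That of CHAC1 is at chr15:40953221-40953520 on the plus strand, with the match (TTNCATCA, read on the other strand) starting 209 bases before the start. The ASNS promoter is at chr7:97872359-97872658 on the minus strand, with the match 68 bases before the start.
CHAC1: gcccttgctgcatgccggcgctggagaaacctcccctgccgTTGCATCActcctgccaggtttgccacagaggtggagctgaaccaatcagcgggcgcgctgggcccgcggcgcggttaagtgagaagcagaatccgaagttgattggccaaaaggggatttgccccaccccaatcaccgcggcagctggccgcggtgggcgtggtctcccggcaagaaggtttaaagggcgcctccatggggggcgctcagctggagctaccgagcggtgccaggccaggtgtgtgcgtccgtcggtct
ASNS: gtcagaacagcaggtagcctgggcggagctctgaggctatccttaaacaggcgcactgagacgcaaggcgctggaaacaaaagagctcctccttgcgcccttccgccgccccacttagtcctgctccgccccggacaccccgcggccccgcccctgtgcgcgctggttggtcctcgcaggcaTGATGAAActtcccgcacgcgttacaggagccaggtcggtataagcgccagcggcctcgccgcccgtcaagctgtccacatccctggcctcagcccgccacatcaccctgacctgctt

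**Figure D3:**
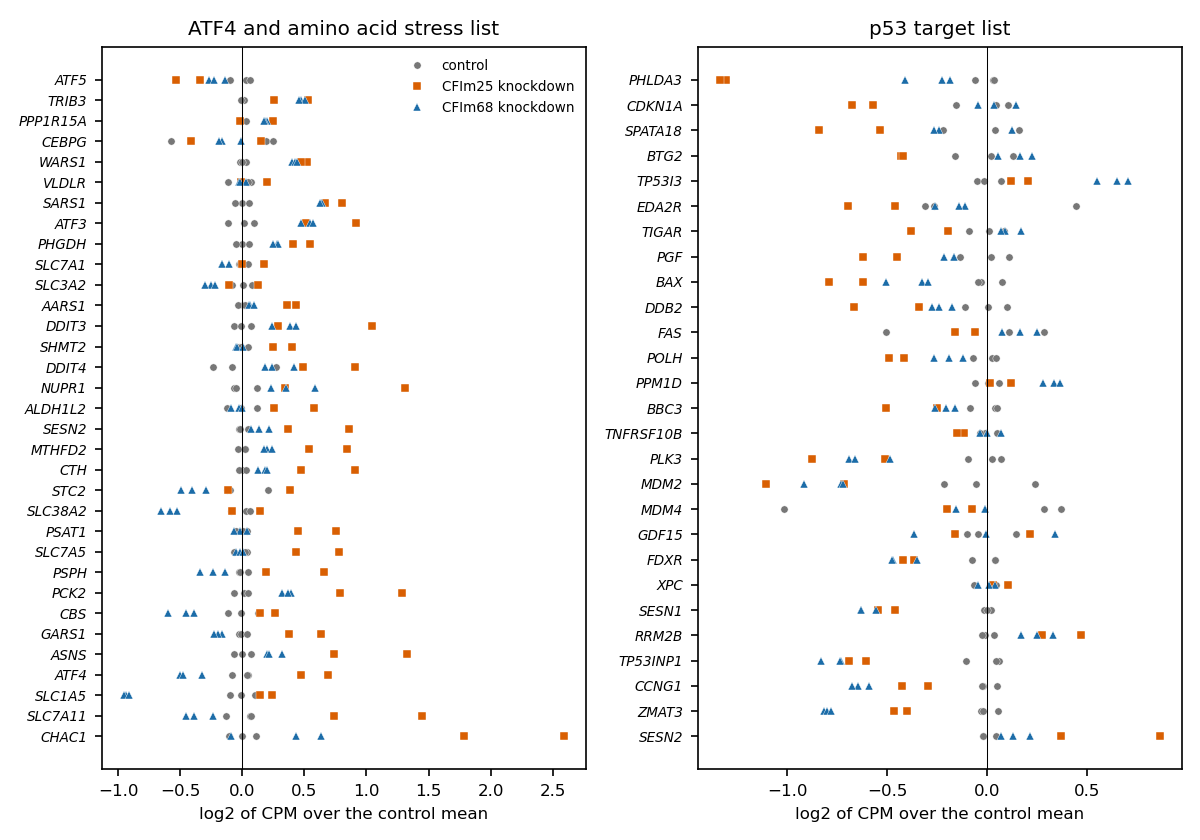
Level of each member of the ATF4 and amino acid stress list (left) and of the p53 target list (right) in each library, as log2 of CPM over the mean of the 3 controls; each point is 1 library. In the left panel most CFIm25 knockdown points lie to the right of the CFIm68 knockdown points, with the 2 CFIm25 knockdown libraries apart from each other; in the right panel many CFIm25 knockdown points lie to the left.

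In the p53 target list, more members were called higher than lower in CFIm68 knockdown. Of 27 tested members 11 were higher and 3 lower, and 13 did not pass the test, with a median log2 difference of 0.17; over all genes 11.1% were higher and 13.2% lower. Without replicate 1 of CFIm25 knockdown 8 were higher and 1 lower. CDKN1A, the gene of the cell cycle inhibitor p21, was at 20.7 and 22.2 CPM in CFIm25 knockdown, 36.6, 33.8 and 32.0 CPM in CFIm68 knockdown and 29.7 to 35.5 CPM in the controls (log2 difference 0.67 ± 0.11, edgeR, Benjamini-Hochberg adjusted p = 3.0e-05). The CFIm68 knockdown libraries thus overlapped the controls and the CFIm25 knockdown libraries lay below them. The pro-apoptotic BAX (19.7 and 22.1 CPM in CFIm25 knockdown against 27.17, 27.69 and 23.99) and the antiproliferative BTG2 (5.36 and 5.39 against 7.5, 8.44 and 8.09) differed the same way. TP53I3, a quinone oxidoreductase gene, rose in CFIm68 knockdown instead (33.2, 37.0 and 35.6 CPM against 24.6 and 26.2, controls 21.9 to 23.8). Lower in CFIm68 knockdown were ZMAT3 (-0.37), CCNG1 (-0.28) and the stress-induced SESN2 (-0.49), which is also a member of the ATF4 list and did not pass the test without replicate 1 of CFIm25 knockdown (-0.23, adjusted p = 0.094). As background, HEK 293 cells carry adenoviral E1 proteins, which include a protein that binds p53. Against the shared controls 18 members were lower and 1 higher in CFIm25 knockdown, beside 23.2% lower and 24.4% higher over all genes. In CFIm68 knockdown 11 were lower and 2 higher, beside 28.1% and 28.3% over all genes.

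Among genes of the G1 phase, 5 of 21 were higher and 4 lower (42.9% called, beside 24.2% over all genes). Beside CCND2 and CDKN1A, the kinase gene CDK4 was at 59.8 and 59.7 CPM in CFIm25 knockdown, 85.8, 84.9 and 85.3 CPM in CFIm68 knockdown and 75.1 to 79.3 CPM in the controls, so that the controls lay between. MYC was at 9.90 and 10.2 CPM in CFIm25 knockdown, and at 6.0, 6.42 and 6.51 CPM in CFIm68 knockdown it was in the range of the controls (5.68 to 6.41 CPM) or just above it. The retinoblastoma-like gene RBL2 was lower in CFIm68 knockdown (94.3, 88.0 and 86.8 CPM against 138 and 132) and below the controls in both. Genes of mitosis (3 of 40 higher, 6 lower) and DNA replication (4 of 45 higher, 6 lower) stayed near the share over all genes. Their shares called were 22.5% and 22.2%. RFC3, a subunit of the clamp loader, was at 105, 105 and 106 CPM in CFIm68 knockdown against 174 and 166 CPM (log2 difference -0.69 ± 0.06).

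Disulfide isomerases and chaperones of the endoplasmic reticulum, the list of PDIA3, were otherwise more often higher than lower in CFIm68 knockdown, with 12 of 29 higher, 6 lower and a median log2 difference of 0.16, beside 11.1% higher and 13.2% lower over all genes. Without replicate 1 of CFIm25 knockdown the counts were 7 and 2. The chaperone gene HSPA5, which encodes BiP, was at 593 and 621 CPM in CFIm25 knockdown, 826, 837 and 866 CPM in CFIm68 knockdown and 858 to 911 CPM in the controls (log2 difference 0.47 ± 0.05). SEL1L, an adaptor of the ubiquitin ligase for misfolded proteins, was highest in CFIm68 knockdown, at 65.9, 67.9 and 66.0 CPM against 41.1 and 39.5 CPM and 28.7 to 33.2 CPM in the controls. DNAJC3, an inhibitor of the eIF2α kinases, had the same order (59.6, 64.4 and 64.7 CPM against 43.6 and 42.4, controls 32.8 to 41.4). Lower besides PDIA3 were HERPUD1, DNAJB9, ERO1B, XBP1 and HSP90B1, at log2 differences of -0.47 to -0.17.

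**Figure D4:**
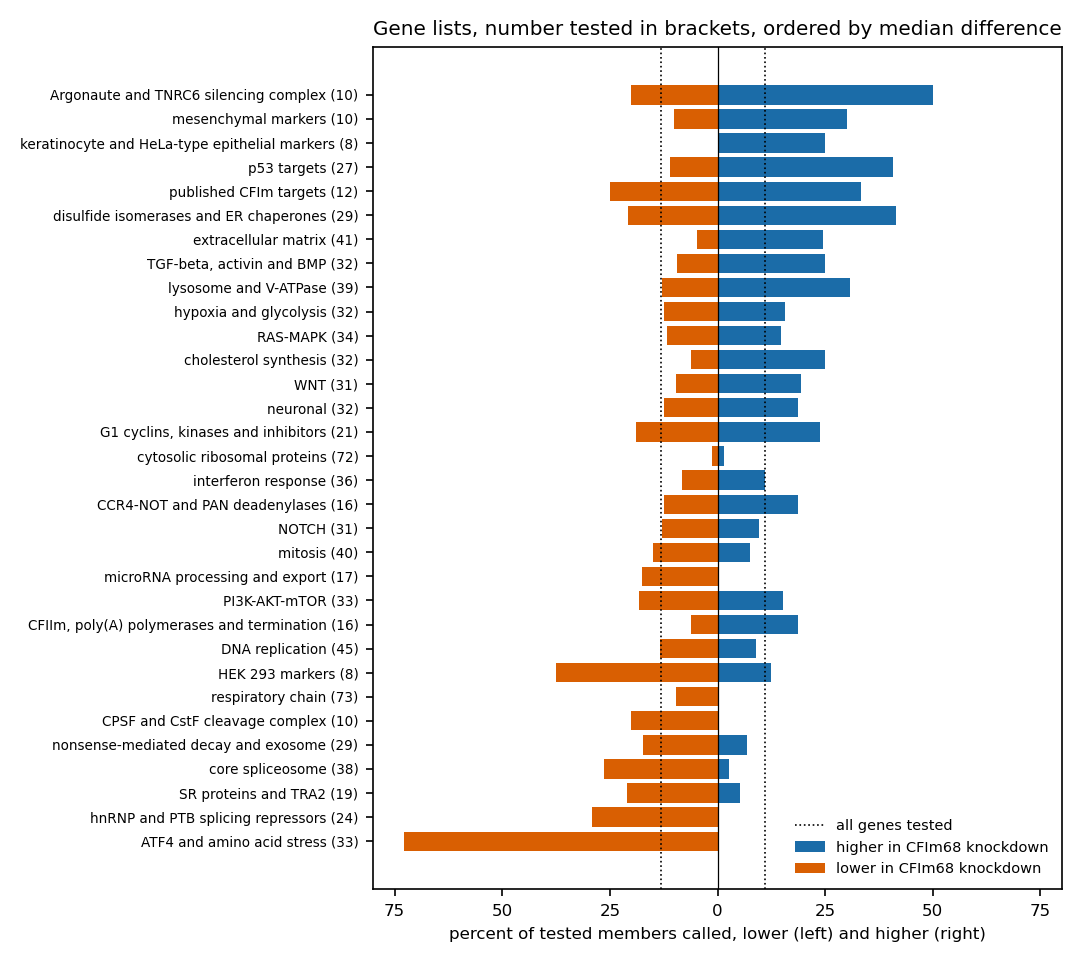
Percent of tested members called higher (right) and lower (left) in CFIm68 than in CFIm25 knockdown for each gene list with at least 5 tested members (numbers in brackets), ordered by the median log2 difference; dotted lines mark the shares over all 12080 genes, 11.1% higher and 13.2% lower. The ATF4 list extends farthest to the left, and the cytosolic ribosomal proteins are close to 0 on both sides.

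In the 3′ end processing machinery outside cleavage factor I, the shares called were 20%, 25% and 31.2% for the 3 lists that follow, near the 24.2% over all genes. Of 10 CPSF and CstF subunits 2 were lower and 0 higher: CPSF4 (32.9, 34.4 and 34.9 CPM in CFIm68 knockdown against 43.0 and 45.7, controls 33.9 to 36.5) and CSTF2 (95.2, 97.8 and 97.7 CPM against 114 and 118, controls 110 to 118). The CPSF4 difference thus came with a higher level in CFIm25 knockdown and the CSTF2 difference with a lower level in CFIm68 knockdown. Of 16 genes of CFIIm, poly(A) polymerases and termination 3 were higher and 1 lower, among them the poly(A) polymerase genes TENT2 (0.44 ± 0.06) and PAPOLG (0.39 ± 0.09), both with CFIm25 knockdown levels below every control. The phosphatase gene SSU72 (0.19) and RPRD1A (-0.25) did not pass the test without replicate 1 of CFIm25 knockdown (edgeR adjusted p = 0.17 and 0.16). In the deadenylase list 3 of 16 were higher and 2 lower; BTG1, which recruits deadenylases, was at 110, 101 and 95.2 CPM in CFIm68 knockdown, 170 and 145 CPM in CFIm25 knockdown and 157 to 164 CPM in the controls.

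In the microRNA pathway, named in the title of the series, 17.6% of the processing and export genes and 70% of those of the silencing complex were called, beside 24.2% over all genes. Of 17 genes of processing and export 3 were lower and 0 higher: the cap-binding NCBP2 (212, 205 and 200 CPM against 279 and 270, controls 208 to 225), the pre-miRNA exporter gene XPO5 (478, 473 and 486 CPM against 552 and 576, controls 598 to 612) and the nuclear processing enzyme gene DROSHA (-0.16). DROSHA did not pass the test with any 1 knockdown library left out (edgeR adjusted p from 0.075 to 0.23). Of 10 genes of the Argonaute and TNRC6 complex, which represses targets of microRNAs, 5 were higher and 2 lower (3 and 0 without replicate 1 of CFIm25 knockdown). TNRC6B was at 73.7, 79.2 and 77.9 CPM in CFIm68 knockdown, 48.2 and 55.5 CPM in CFIm25 knockdown and 21.2 to 27.5 CPM in the controls, so that the 3 groups did not overlap. AGO3 was at 51.4, 52.4 and 54.5 CPM in CFIm68 knockdown, while in CFIm25 knockdown (36.9 and 36.7 CPM) it was just below the range of the controls (37.3 to 39.3). AGO4 rose in steps (46.2 to 56.4 CPM in control, 75.4 and 77.1 in CFIm25 knockdown, 95.5, 104 and 100 in CFIm68 knockdown). AGO2 (0.27) and AGO1 (0.27) did not pass the test without replicate 1 of CFIm25 knockdown (0.24 and 0.14, edgeR adjusted p = 0.14 and 0.45), nor did MOV10 (-0.19, adjusted p = 0.084) and EIF4ENIF1 (-0.54, adjusted p = 0.080).

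Genes published as CFIm targets for a change in polyadenylation site had 4 of 12 tested members higher and 3 lower in CFIm68 knockdown (1 and 3 without replicate 1 of CFIm25 knockdown). With all libraries, 58.3% of the tested members were called, beside 24.2% over all genes. VMA21, an assembly factor of the lysosomal proton pump, was at 4.93 to 6.98 CPM in the controls, 20.3 and 21.7 CPM in CFIm25 knockdown and 31.6, 28.9 and 28.8 CPM in CFIm68 knockdown. Both knockdowns lay far above control and CFIm68 knockdown was the higher of them (log2 difference 0.50 ± 0.11). The kinase gene PAK1 (79.1, 81.2 and 82.2 CPM against 110 and 106, controls 123 to 134) and FHL1 (101, 97.6 and 106 CPM against 129 and 126, controls 158 to 169) fell in both knockdowns, and further in CFIm68 knockdown. GSK3B and TIMP2 were higher by 0.28 and 0.22, but did not pass the test without replicate 1 of CFIm25 knockdown (edgeR adjusted p = 0.10 and 0.055).

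In the splicing lists, more members were called lower than higher in CFIm68 knockdown, beside 13.2% lower and 11.1% higher over all genes. Of 38 core spliceosome genes 10 were lower and 1 higher (median -0.09), of 24 hnRNP and PTB genes 7 were lower and 0 higher (median -0.13), and of 19 SR protein and TRA2 genes 4 were lower and 1 higher (median -0.13). Without replicate 1 of CFIm25 knockdown, 4 core spliceosome, 6 hnRNP and PTB and 4 SR protein and TRA2 genes were lower. EFTUD2, a GTPase of the U5 snRNP, was at 553, 545 and 567 CPM in CFIm68 knockdown, 898 and 955 CPM in CFIm25 knockdown and 774 to 830 CPM in the controls, a log2 difference of -0.74 ± 0.05 with the controls between. HNRNPH3 was at 297, 288 and 289 CPM in CFIm68 knockdown against 422 and 426 CPM, with controls of 273 to 284 CPM. HNRNPLL fell far in both, from 24.7 to 29.6 CPM in control to 6.76 and 8.36 CPM in CFIm25 knockdown and 4.94, 5.23 and 4.37 CPM in CFIm68 knockdown; its log2 difference of -0.66 was -0.48 without replicate 2 of CFIm25 knockdown (edgeR adjusted p = 0.056). SRSF7 (380, 390 and 389 CPM against 473 and 463) and TRA2A (32.1, 29.6 and 28.5 CPM against 42.3 and 36.8) were below control in both knockdowns.

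Signalling lists held members in both directions, at shares called of 22.6% to 34.4% beside 24.2% over all genes. In RAS-MAPK signalling 5 of 34 were higher and 4 lower, in PI3K-AKT-mTOR 5 of 33 and 6, in WNT 6 of 31 and 3, in NOTCH 3 of 31 and 4, and in TGF-beta, activin and BMP 8 of 32 and 3. Without replicate 1 of CFIm25 knockdown, 1, 3, 2, 0 and 1 members were higher in these lists and 3, 5, 2, 1 and 2 lower. The tyrosine phosphatase gene PTPN11, which activates RAS signalling, was at 119, 118 and 117 CPM in CFIm68 knockdown, 181 and 182 CPM in CFIm25 knockdown and 162 to 184 CPM in the controls. RPS6KB2, an S6 kinase gene, was at 48.3, 51.5 and 55.3 CPM against 79.6 and 86.1 CPM, and the transcription factor gene FOXO1 at 34.4, 33.1 and 31.7 CPM against 50.4 and 48.8 CPM. The insulin receptor substrate gene IRS2 (26.1, 24.4 and 28.1 CPM against 45.04 and 37.25) lay below its controls (47.1 to 47.9) in every knockdown library.

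Of the receptors, the WNT receptor gene FZD5 was lower in CFIm68 knockdown (35.3, 33.2 and 36.7 CPM against 54.2 and 53.3, controls 92.7 to 95.7) and FZD6 higher (87.4, 91.9 and 89.9 CPM against 67.7 and 66.7, controls 69.8 to 74.2). NOTCH3 was at 39.1, 32.3 and 37.4 CPM against 51.5 and 55.1 CPM, with controls of 66.8 to 82.2 CPM. The receptor gene BMPR2 (106, 109 and 112 CPM against 82.0 and 88.5, controls 90.7 to 110) was below all controls in CFIm25 knockdown and in their range, or just above it, in CFIm68 knockdown. ACVR1B, an activin receptor gene, was lower in CFIm68 knockdown (-0.37 ± 0.07) and the kinase gene BRAF, above control in both, was higher (0.30 ± 0.07).

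Among the lists with at least 5 tested members, the cytosolic ribosomal proteins and the respiratory chain had the smallest shares called. Of 72 cytosolic ribosomal protein genes 53 were higher than control in CFIm25 knockdown and 62 in CFIm68 knockdown, beside 24.4% and 28.3% over all genes. Between the knockdowns, however, 1 was higher and 1 lower (2.78% called, beside 24.2% over all genes), with a median log2 difference of 0.02. Those that passed were RPL23 (0.14) and RPL35A (-0.22), and neither passed without replicate 1 of CFIm25 knockdown (edgeR adjusted p = 0.088 and 0.20). Of 73 respiratory chain genes 7 were lower and 0 higher (9.59% called), such as NDUFA5 (104, 101 and 98.0 CPM against 149 and 124) and ATP5F1B (1987, 1984 and 1965 CPM against 2305 and 2404). Nonsense-mediated decay and exosome genes, at 24.1% called, matched the share over all genes, with 2 of 29 higher and 5 lower (0 and 0 without replicate 1 of CFIm25 knockdown).

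For the lists that follow, the shares over all genes are 11.1% higher and 13.2% lower. These are the shares with all libraries, and calls over all genes were also fewer without replicate 1 of CFIm25 knockdown. Lysosomal and V-ATPase genes had 12 of 39 higher and 5 lower, and 2 and 2 without replicate 1 of CFIm25 knockdown. The pump-associated ATP6AP2 was lower in CFIm68 knockdown (118, 113 and 112 CPM against 144 and 148). Cholesterol synthesis genes had 8 of 32 higher and 2 lower (2 and 2 without that library), with HMGCS1 at 168, 168 and 166 CPM against 116 and 117 CPM. Extracellular matrix genes had 10 of 41 higher and 2 lower (5 and 2), among them the matrix metalloproteinase gene MMP2 (17.45, 15.97 and 16.02 CPM against 10.17 and 10.15) and SPARC (244, 258 and 254 CPM against 201 and 205). Hypoxia and glycolysis genes (5 of 32 higher, 4 lower), interferon response genes (4 of 36 and 3) and neuronal genes (6 of 32 and 4) held both directions.

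Markers were summed to check the labelled cell type. HEK 293 markers such as EYA1 and NEFL were expressed in all groups, with 8 tested members summing to 413 to 442 CPM in the controls, 441 to 472 CPM in CFIm25 knockdown and 352 to 368 CPM in CFIm68 knockdown; 1 was higher and 3 were lower in CFIm68 knockdown. The sum was mainly NEFL, at 224, 210 and 211 CPM in CFIm68 knockdown against 316 and 288 CPM. Epithelial markers of keratinocyte or HeLa type, 8 tested, summed to 715 to 754 CPM in the controls, 743 to 771 CPM in CFIm25 knockdown and 779 to 795 CPM in CFIm68 knockdown, with 2 higher, KRT17 (11.9, 9.63 and 14.1 CPM against 6.95 and 4.91) and LAMB3. Mesenchymal markers, 10 tested, summed to 92.6 to 101 CPM in the controls, 83.7 to 84.7 CPM in CFIm25 knockdown and 98.8 to 101 CPM in CFIm68 knockdown, with 3 higher and 1 lower. Of 12 blood cell markers 1 passed the filter, CD14, at under 1 CPM. The part of these markers in the differences above was not tested.

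Annotated transcript features had different medians and shares among the genes higher and lower in CFIm68 knockdown. They are those of the coding transcript with the longest annotated 3′ UTR, and the 3′ UTRs in use were not measured. The median annotated 3′ UTR was 1876 bases among genes higher in CFIm68 knockdown, 1472 bases among those lower and 1228 bases among those that did not pass. These groups also differed in level, with median levels in the knockdown libraries of 39.3, 55.8 and 21.3 CPM. The share called rises with level, and the part of level in the values given here was not tested. The share of genes called higher went from 7.71% in the quartile group with the shortest 3′ UTRs to 15.6% in the quartile group with the longest, and the share called lower from 11.1% to 14.2%. GC content showed the reverse asymmetry: the share called lower went from 18.4% in the quartile group with the least GC to 6.62% in that with the most, while the share called higher stayed between 10.8% and 11.8%. Likewise, the share called lower rose from 8.34% to 17% over quartile groups of UGUA density in the 3′ UTR, and the share called higher stayed at 11.2% to 11.7%. UGUA density and GC content are linked through base composition, and no test was made of these shares. Removing a smooth trend on GC content from each library left 2827 genes called, 1255 higher and 1572 lower. The shares by quartile group were not computed again after this removal, so these counts do not bear on them.

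**Figure D5:**
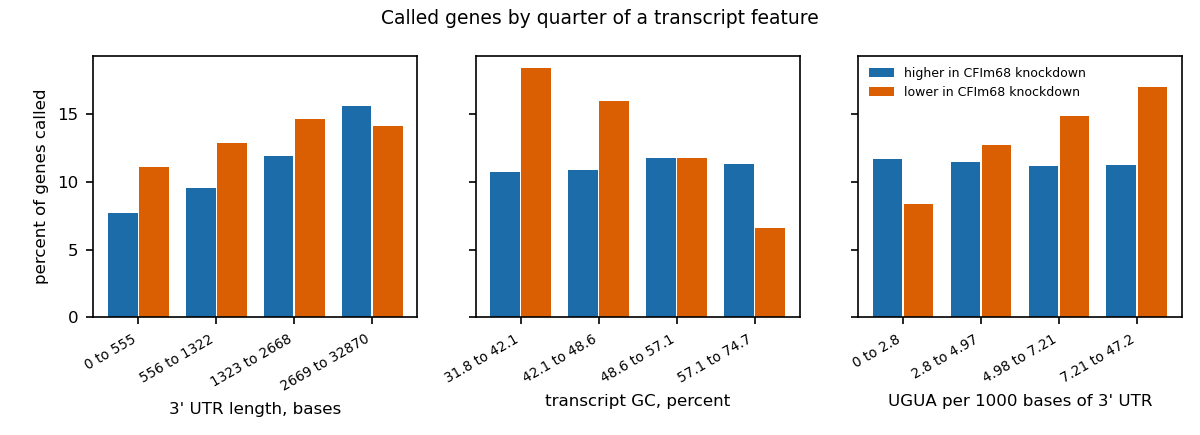
Percent of genes called higher or lower in CFIm68 than in CFIm25 knockdown (vertical axis) by quartile group of 3′ UTR length, transcript GC content and UGUA per 1000 bases of 3′ UTR (horizontal axes, with the range of each quartile group). The share higher rises with 3′ UTR length, and the share lower falls with GC content from 18.4% to 6.62%.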

How the data were processed

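Raw counts of reads per gene were deposited by the authors. The submitters' processing notes name cutadapt 1.16, STAR 2.7.1a and the hg38 build, and the labels' protocols name a TruSeq Stranded mRNA kit. Which tool counted the reads, with which annotation and strand setting, is not given here. Groups and replicate numbers come from the labels.

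The model was fitted with edgeR 4.0.16 (R 4.3.3). The function filterByExpr kept genes by a minimum count of 10 and a minimum total of 15, and TMM scaled the libraries. All 14 libraries entered a quasi-likelihood fit with a coefficient for each group, so the CFIm25 knockdown, with 2 libraries, shares its estimate of spread with the other groups. The Benjamini-Hochberg threshold was 0.05 over 12080 genes, and glmTreat tested against 1.5-fold. The common biological coefficient of variation was 0.0501. SE is the error of the log2 difference, and 95% intervals use it.

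The libraries compared and the gene lists were chosen with earlier results of these data known. Named are the cleavage factor I genes, the genes with the largest differences (mean of at least 5 CPM, or 100 CPM, libraries not overlapping, or with the controls between) and the list members with the smallest adjusted p. Named after their values were seen were CHAC1, ASNS, SLC7A5, SLC38A2, PSAT1, PSPH, MTHFD2, SHMT2, SARS1, WARS1, TRIB3, PPP1R15A, BAX, ZMAT3, CCNG1, HERPUD1, DNAJB9, ERO1B, XBP1, HSP90B1 and EIF3A. Values of some genes under the rule are left out of the text. Symbols were found for 17959 of 18006 identifiers. Genes without introns are mostly not in the table. Of 154 genes named by the rule, 22 have exons in GENCODE 29 that overlap a same-strand neighbour. Not all of these, BTG1 and AGO2 for example, are marked where their levels are given. On either strand 86 of the 154 overlap a neighbour, among them CPSF6, PDIA3 and MED12L. This matters if the reads were counted without regard to strand. Features use 1 transcript per gene, the coding transcript with the longest annotated 3′ UTR, which need not be the one expressed. Plots used Python 3.11.15 with matplotlib 3.10.9 and pandas 2.3.3.

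Alternatives were DESeq2 1.42.0, limma-voom 3.58.1, median-ratio size factors, other filters, the replicate number as a block, only the groups compared, removal of medians of 50 neighbouring genes and leaving out each library. Removal of a trend on GC content was chosen after seeing the data.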

Additional observations from a re-analysis of the deposited data

How the results depend on the processing

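The 2929 genes called between the knockdowns were 2774 with DESeq2, 3054 with limma-voom and 3065 without a filter on low counts. With a fit to only the groups compared, 4337 genes were called (2052 higher). Leaving out 1 library gave 1465 to 2384 genes, 591 to 1101 higher and 874 to 1283 lower. The lowest values were those without replicate 1 of CFIm25 knockdown, where that group has 1 library assumed to vary like the others. Of the 1465, 1440 were among the 2929, in the same direction.

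For same-numbered libraries of the knockdowns, deviations from the group mean had r = 0.066 and 0.013. With 2 CFIm25 knockdown libraries, the deviations of 1 are those of the other with the sign changed. These values therefore cannot decide whether equal numbers pair the libraries. With the replicate number as a block 3256 genes were called. Of 154 named genes, 0 changed direction under any alternative run, and 39 did not pass without replicate 1 of CFIm25 knockdown, 12 without its replicate 2 and 8 to 12 without a CFIm68 knockdown library. The cause was not tested. Genes below 5 CPM had a median SE of 0.24 on the log2 scale against 0.059 at 100 CPM and above, so smaller differences were detectable at higher levels.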
